A study of Mus musculus with 2 samples.

Results

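The histone genes of mouse thymus were followed in 1 RNA library of miR-146a Tg mice and 1 of WT mice. A gene was taken as a histone gene where its current or former mouse symbol names a core histone (H2A, H2B, H3 or H4) or a linker histone (H1), and where a gene had several transcripts its most abundant one stood for it. This gave 103 genes of 23296 named genes. Of these, 67 carry a cluster name (Hist1h to Hist4h in the older nomenclature) and are called replication-dependent, and the other 36 are called variants. A mean of at least 1 RPKM over both libraries, the level at which a gene counted as measured, was reached by 64 histone genes (55 replication-dependent and 9 variant) and by 11095 genes in all. RPKM is the number of reads on a transcript, scaled to its length in kilobases and to the depth of the library.

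The Tg mice carry a transgene from which miR-146a is expressed systemically, and the WT controls came from purchased Balb/c stock; the sources used here do not call them littermates of the Tg mice. Each library came from thymuses of 1 male and 1 female Balb/c mouse, 5 to 6 weeks old, pooled before sequencing, and the RNA was selected with oligo(dT) beads. The promoter of the transgene is not given in the sources used here. With 1 library per genotype there was no measure of the spread between animals and no test between genotypes: every ratio below compares these libraries. Fewer cells of a type and less RNA per cell cannot be told apart in such bulk samples.

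Most histone protein is made in S phase, when DNA is copied, from genes that lie in clusters and contain no introns. Their mRNAs end in a short stem-loop and not in a poly(A) tail. The stem-loop is bound by the protein SLBP, and the end is cut with the help of the U7 snRNP. Variant histones are encoded by genes outside these clusters, some of them with introns. Many have polyadenylated mRNAs and are made through the whole cell cycle. Oligo(dT) beads capture polyadenylated RNA, so the level of a replication-dependent gene here is that of the RNA the beads retained, not of its total mRNA.

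The stem-loop was looked for after the stop codon in the GENCODE models of the members, as the letters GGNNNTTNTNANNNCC with all 6 bases of the stem paired (G with U allowed). It was present in 45 of the 67 replication-dependent genes and was not found in 5. The models of the other 17 showed none either, but they end within 60 bases of the stop codon and were left undecided. It was found in 2 of the 36 variants, H2ax and H2bfm. Of 49602 transcripts of all genes with 60 or more bases after the stop codon, 0.208% held it. The sequences are shown because the stem-loop is the mark of a replication-dependent histone mRNA. They are written as DNA, 5′ to 3′, with the 4 bases of the loop in capitals.
H2ac23 (chromosome 13): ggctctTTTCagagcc
H4f16 (chromosome 6): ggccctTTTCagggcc
H2ac20 (chromosome 3): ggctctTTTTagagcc
H2ax (chromosome 9): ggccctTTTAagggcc
The form of H2ac23 was held by 26 genes of the H1, H2A, H2B and H3 types, and the form of H4f16 by 7 H4 genes. H2ax had a form of its own, starting 47 bases after the stop codon, and its model ran 822 bases past the stem-loop. The polyadenylation signal AATAAA stood in the last 60 bases of the models of 14 replication-dependent genes and 10 variants.

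The main feature of the data was a split among the replication-dependent genes by the histone they encode. Among 18 H2A genes of the clusters, the Tg value exceeded the WT value by over 1.5-fold in 12, and the WT value exceeded the Tg value by as much in none. Of the 37 measured H1, H2B, H3 and H4 genes of the clusters, 4 were over 1.5-fold higher and 7 over 1.5-fold lower. Of all measured genes, 7.74% were over 1.5-fold higher and 11.0% over 1.5-fold lower. The median log2(Tg/WT) was 0.78 for the H2A genes and -0.02 for the others, against 0.03 for all measured genes. Taken as a class, the replication-dependent genes had 16 genes over 1.5-fold higher, 7 over 1.5-fold lower and a median log2(Tg/WT) of 0.16. For the measured variants the median was 0.05, a difference of 0.10 between the class medians.

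**Figure D1:**
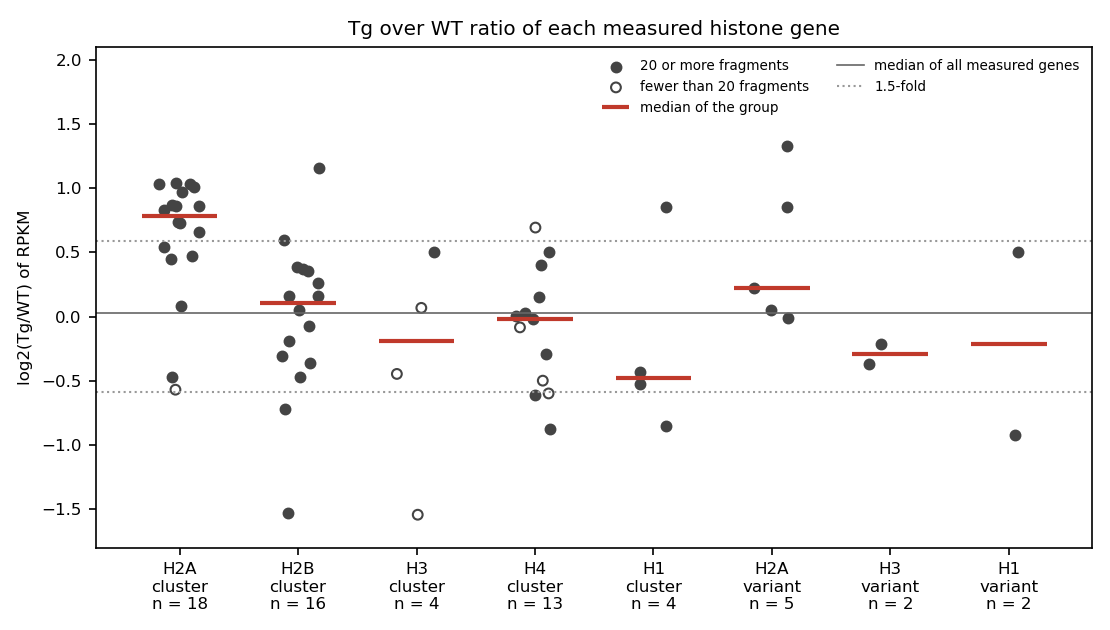
Log2(Tg/WT) of RPKM (vertical axis) for each measured histone gene, grouped by histone type and class, with the group median as a red bar and 1.5-fold as dotted lines. Of the 18 H2A genes of the clusters, 12 lie above the upper dotted line, against 4 of the 37 other cluster genes.

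H2A and H2B form the dimers that flank the H3 and H4 tetramer in a nucleosome. The highest H2A gene, H2ac23 (formerly Hist1h2ao, GRCm38 chromosome 13, 21810367 to 21810918), had 149 RPKM in the Tg library and 89.6 RPKM in the WT library, a ratio of 1.66 (95% interval 1.51 to 1.83). Intervals are exact binomial (Clopper-Pearson) intervals on the fragments behind the values and cover counting error only, since PCR copies are not independent molecules. H2ac24 (Hist1h2ap) had 97.0 RPKM in the Tg library and 61.5 RPKM in the WT library. H2ac11 (Hist1h2ag) had 72.5 RPKM in the Tg library and 40.8 RPKM in the WT library. These genes encode the same kind of protein, and all were higher in the Tg library. Their coding sequences are shared with other genes, as described below, so their values may not be independent of each other. H2ac12 had 55.4 RPKM in the Tg library and 30.4 RPKM in the WT library. H2ac7 had 53.9 RPKM in the Tg library and 29.4 RPKM in the WT library. H2ac10 had 53.7 RPKM in the Tg library and 26.1 RPKM in the WT library, a ratio of 2.06 (1.69 to 2.51).

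The ratio of H2ac10 was the highest among the H2A genes of the clusters. H2ac13 had 51.4 RPKM in the Tg library and 25.6 RPKM in the WT library. H2ac22 had 38.5 RPKM in the Tg library and 21.2 RPKM in the WT library. H2ac15 had 33.7 RPKM in the Tg library and 17.2 RPKM in the WT library. The WT levels of the 10 highest H2A genes thus ran over a wide range while their ratios lay close together. H2ac4, the last of the 10, had 31.7 RPKM in the Tg library and 15.5 RPKM in the WT library, a ratio of 2.04 (1.63 to 2.57). The lowest ratio among these 10 genes was that of H2ac24, at 1.58 (1.38 to 1.81).

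**Figure D2:**
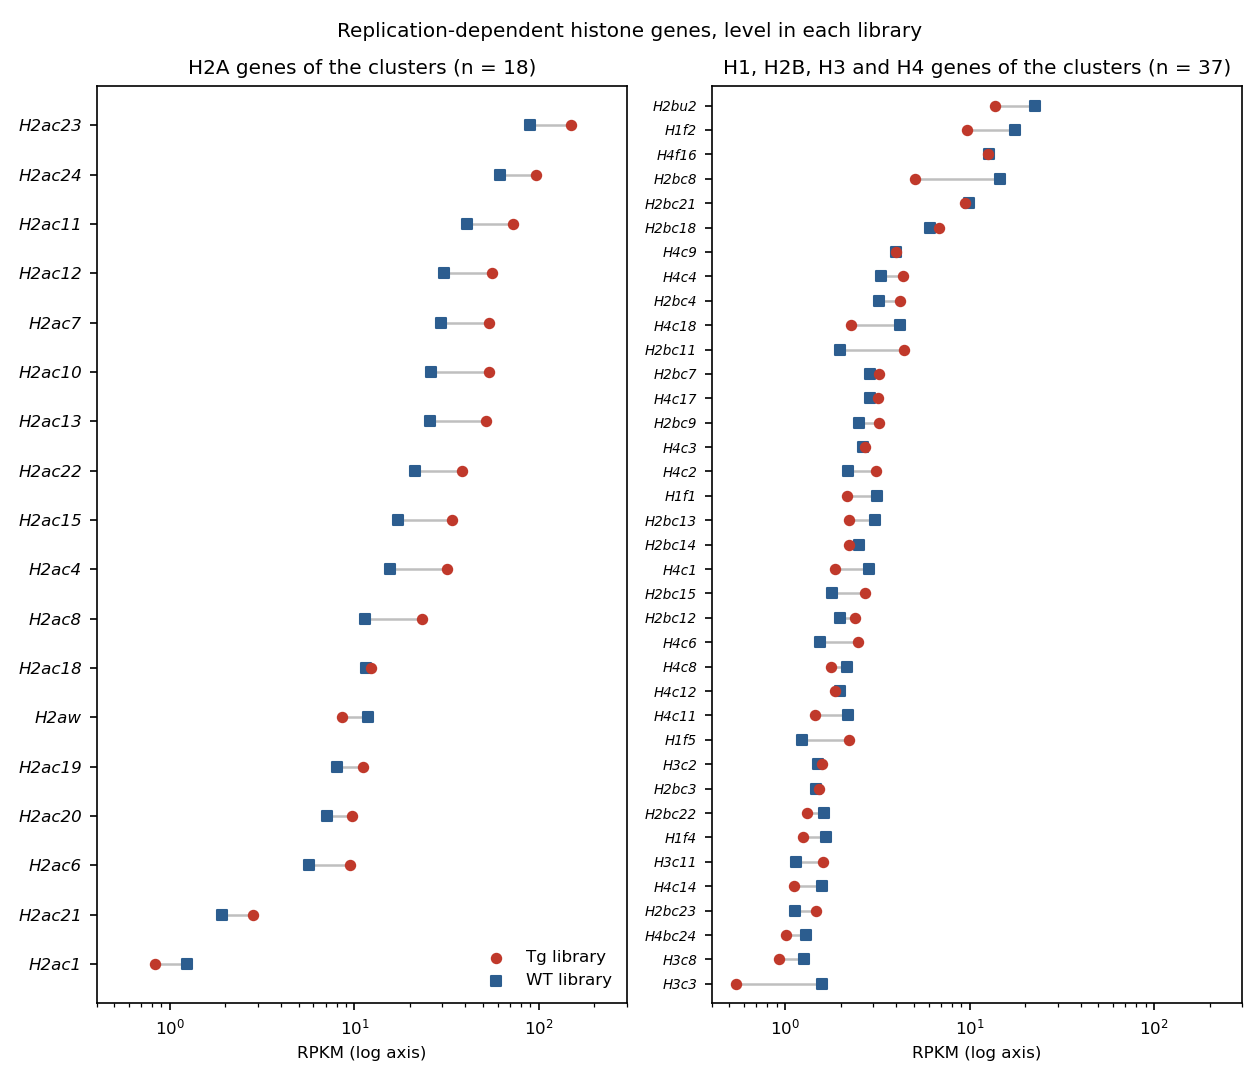
Level of each measured replication-dependent gene in RPKM (log axis), with the Tg library as red circles and the WT library as blue squares, for H2A genes (left) and the other types (right). The H2A genes reach 149 RPKM in the Tg library and 89.6 RPKM in the WT library. The highest of the other genes, H2bu2, had 13.7 RPKM in the Tg library and 22.5 RPKM in the WT library.

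Position in the genome went with the ratio among H2A genes. The large cluster lies on chromosome 13, and 12 of its 13 H2A genes were higher by over 1.5-fold. In the part of that cluster nearer to the start of the chromosome, all 7 H2A genes were, with ratios from 1.58 to 2.01 and a fragment ratio over all of them of 1.73 (1.64 to 1.83). The 16 genes of other types in the same stretch had a fragment ratio of 1.05 (0.886 to 1.24). In the other part of the cluster, 5 of 6 H2A genes were over 1.5-fold higher, with a fragment ratio of 1.88 (1.72 to 2.06), while the other types there had a fragment ratio of 0.696 (0.627 to 0.771) and a median log2 ratio of 0.03, with H1f2 and H2bc8 the lowest among those with 20 or more fragments. The split by type therefore appeared within each part of the chromosome 13 cluster.

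The 5 H2A genes on chromosomes 3 and 11 all lay within 1.5-fold. H2ac18 on chromosome 3 had 12.2 RPKM in the Tg library and 11.6 RPKM in the WT library, and H2ac19 had 11.1 and 8.05 RPKM in the same order. H2aw, the H2A gene of the small chromosome 11 cluster, had 8.52 RPKM in the Tg library and 11.8 RPKM in the WT library, a ratio of 0.722 (0.612 to 0.851). It was the only H2A gene of the clusters whose interval lay below 1. The remaining H2A gene on chromosome 13, H2ac1, stood just inside the level for a measured gene, with 0.833 RPKM in the Tg library and 1.24 RPKM in the WT library, which are 5 and 7 fragments.

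Several H2A genes are near-identical copies, which limits how far single genes can be told apart. All 50-base windows of the coding sequence were found in a transcript of another gene for 7 of the 18 H2A genes, among them H2ac23, H2ac24, H2ac11 and H2ac7, and at least 50% of the windows for 17. The study counted uniquely mapped reads, so the level of such a gene is uncertain. How reads on near-identical copies were placed is not given in the sources used here. Reads left out or counted at several copies would touch the counts of genes, the sums and the ratios between sums alike. The intervals on fragments summed over genes, given above for each part of the cluster, take each fragment as counted once. They would be too narrow if fragments were counted at several copies. Summed over all 18 H2A genes, the level was 714 RPKM in the Tg library and 416 RPKM in the WT library, a ratio of 1.72. The H2B genes also shared most of their windows, with a median of 81.6% against 92.3% for the H2A genes. Of all 55 measured replication-dependent genes, 45 shared at least 50% of their windows, and for the 10 that did not the median log2 ratio was -0.46, with 1 over 1.5-fold higher and 2 over 1.5-fold lower. A single H2A gene, H2ac1, was among these 10.

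H2B genes stood at far lower levels. Their sum over 18 genes was 66.4 RPKM in the Tg library and 80.7 RPKM in the WT library, so that the H2A sum was 10.8 times the H2B sum in the Tg library and 5.15 times in the WT library. The gap was smaller in fragments, which are not divided by length. There were 5445 H2A and 912 H2B fragments in the Tg library, and 3162 and 1011 in the WT library. Of 16 measured H2B genes, 2 were over 1.5-fold higher and 2 over 1.5-fold lower, too few genes to set apart from the 7.74% and 11.0% of all measured genes. H2bc11 (Hist1h2bj) had 4.43 RPKM in the Tg library and 1.99 RPKM in the WT library, a ratio of 2.23 that was the highest of any replication-dependent gene with 20 or more fragments. It rested on 26 and 11 fragments, with an interval of 1.06 to 5.00. H2bc8 (Hist1h2bg) had 5.07 RPKM in the Tg library and 14.7 RPKM in the WT library, a ratio of 0.346 (0.243 to 0.485). This was the lowest ratio among replication-dependent genes with 20 or more fragments. H2bu2 on chromosome 11, the highest H2B gene, had 13.7 RPKM in the Tg library and 22.5 RPKM in the WT library, a ratio of 0.609 (0.485 to 0.762). H2bc21 (Hist2h2be), whose model held no stem-loop and ended with AATAAA, had 9.40 RPKM in the Tg library and 9.92 RPKM in the WT library.

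H2A and H2B genes of the large cluster often lie back to back, with starts that point away from each other and a shared stretch of promoter DNA between them. There were 10 such pairs within 1000 bases, with starts 164 to 281 bases apart. In the 9 pairs with both genes measured, the H2A gene had the higher mean level in 9, by 1.75 to 91.5 times with a median of 17.6. These are RPKM values, which are divided by length. In the pair at 91.5 times, the length was 514 bases for H2ac23 and 2121 bases for H2bc23. The Tg/WT ratio of the H2A gene was above that of its H2B partner in 8 of the 9. The exception was H2ac11 with H2bc11, described above. In the other pairs, the counting intervals of H2bc8, H2bc13 and H4bc24 lay below the ratio of the H2A partner. Those of H2bc7, H2bc12, H2bc15, H2bc22 and H2bc23 included it, so the order within these pairs is uncertain. H2bc12, for example, had 14 fragments in the Tg library and 11 in the WT library, with an interval of 0.506 to 2.92. The widest gap was between H2ac8, with 23.2 RPKM in the Tg library and 11.3 RPKM in the WT library, and H2bc8, whose starts are 180 bases apart.

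**Figure D3:**
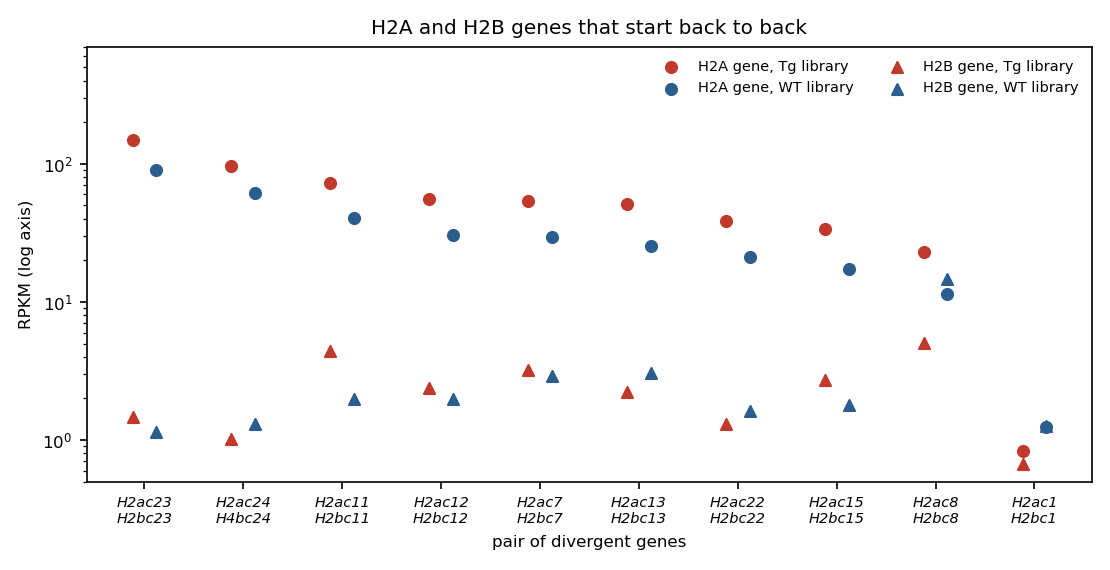
Level in RPKM (log axis) of the H2A gene (circles) and the H2B gene (triangles) of each divergent pair, with the Tg library in red, left of the WT library in blue. The H2A circles lie above the H2B triangles of the same library in each of the pairs but H2ac8 with H2bc8 in the WT library (11.3 against 14.7 RPKM) and H2ac1 with H2bc1, where the WT values are 1.24 and 1.26 RPKM.

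Promoters were read from the RefSeq table (build GRCm38.p6, 250 bases before to 50 bases after the start). The window of H2bc8 is shown because it spans the starts of both genes of the pair with the widest gap, the window of H2ac23 because this was the highest gene of the clusters, and that of H3f3b because it is a variant whose window holds the same letters. Capitals mark CCAAT on either strand, the octamer ATTTGCAT on either strand, and the TATA box letters TATAAA, also on either strand.
H2bc8 (chr13:23571150-23571449, plus strand): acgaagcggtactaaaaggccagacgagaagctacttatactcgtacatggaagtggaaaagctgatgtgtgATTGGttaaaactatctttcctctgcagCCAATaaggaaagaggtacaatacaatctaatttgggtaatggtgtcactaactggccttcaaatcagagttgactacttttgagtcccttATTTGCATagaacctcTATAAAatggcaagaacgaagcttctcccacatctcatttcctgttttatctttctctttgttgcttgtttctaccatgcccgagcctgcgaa
H2ac23 (chr13:21810117-21810416, plus strand): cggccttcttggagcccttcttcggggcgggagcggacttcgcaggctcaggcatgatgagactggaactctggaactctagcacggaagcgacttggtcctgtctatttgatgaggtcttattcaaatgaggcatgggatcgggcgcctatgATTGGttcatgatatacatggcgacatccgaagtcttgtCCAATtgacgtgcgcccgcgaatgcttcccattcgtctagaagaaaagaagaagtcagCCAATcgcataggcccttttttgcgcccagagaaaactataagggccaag
H3f3b (chr11:116024455-116024754, minus strand): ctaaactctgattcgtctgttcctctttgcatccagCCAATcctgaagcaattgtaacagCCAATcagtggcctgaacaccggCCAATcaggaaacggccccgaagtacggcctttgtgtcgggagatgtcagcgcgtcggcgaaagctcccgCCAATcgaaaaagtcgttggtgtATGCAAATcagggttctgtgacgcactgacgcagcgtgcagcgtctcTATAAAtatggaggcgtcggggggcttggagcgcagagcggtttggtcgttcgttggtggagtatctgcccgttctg
CCAAT was held by 53 of 62 replication-dependent windows (85.5%), 13 of 35 variant windows (37.1%) and 37.4% of all 32851 windows in the table. All 18 H2A windows and all 16 H2B windows held it, against 3 of 12 H4 windows. The octamer was held by 38.9% of H2A windows, 37.5% of H2B windows, no H1, H3 or H4 window of the clusters, and 1.74% of all windows. TATAAA was held by 56.5% of the replication-dependent windows and 13.6% of all windows. The windows of divergent pairs overlap, so the H2A and H2B counts are not independent. Letters were counted on either strand, so much of the same DNA was read for both genes of a pair. The like shares of H2A and H2B windows therefore say nothing on their difference in level or in ratio.

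H3 and H4 genes of the clusters, which encode the inner tetramer, were low in both libraries. Of 12 H3 genes, 4 were measured, with levels of 0.541 to 1.61 RPKM in the Tg library and 1.14 to 1.58 RPKM in the WT library. The 8 others had 8 to 39 fragments each over both libraries, and 5 of them had the higher value in the Tg library. Over all 12 genes the fragment ratio was 1.10 (0.830 to 1.46), an interval that includes 1. Of the genes below the limit, H3c13 had 8 fragments in the Tg library and 1 in the WT library, a ratio of 7.55 with a counting interval of 1.01 to 335. All 13 H4 genes were measured. Their sum was 42.9 RPKM in the Tg library and 44.3 RPKM in the WT library, with a fragment ratio of 0.982 (0.884 to 1.09).

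Among H4 genes, H4f16 (Hist4h4, chromosome 6) made up a large share of that sum, with 12.6 RPKM in the Tg library and 12.7 RPKM in the WT library. Its model ran 2445 bases past the stem-loop and ended with AATAAA. H4c18 (Hist1h4n) had 2.29 RPKM in the Tg library and 4.19 RPKM in the WT library, a ratio of 0.546 with an interval of 0.235 to 1.21. In all, 33 of the 37 measured H1, H2B, H3 and H4 genes of the clusters had an interval that included 1. Only 1 of the 4 over 1.5-fold higher (H2bc11) and 3 of the 7 over 1.5-fold lower (H1f2, H2bc8 and H2bu2) had intervals that excluded it.

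Linker histones bind the DNA that enters and leaves the nucleosome. The replication-dependent H1 genes summed to 16.1 RPKM in the Tg library and 24.6 RPKM in the WT library, with a fragment ratio of 0.620 (0.540 to 0.711). H1f2 (Hist1h1c) held most of this, with 9.74 RPKM in the Tg library and 17.6 RPKM in the WT library, a ratio of 0.555 (0.470 to 0.653). Its model continued 840 bases past the stem-loop to an AATAAA signal, as for H4f16. H1f5 (Hist1h1b) stood on the other side, with 2.22 RPKM in the Tg library and 1.23 RPKM in the WT library, but its 23 and 12 fragments gave an interval of 0.863 to 3.99. H1f1 and H1f4 lay within 1.5-fold.

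The end of the gene model was therefore set beside the ratio. Among the measured cluster genes other than H2A, the median log2 ratio was -0.43 for the 10 whose models ended with AATAAA. Of these 10, 4 were over 1.5-fold lower and none higher. Only 2 of the 10 had an interval below 1, and 2 had fewer than 20 fragments. The 27 without it had a median of 0.07, with 4 higher and 3 lower. Among the 27, 1 interval lay above 1 and 1 below. Of all measured genes, 7.74% were over 1.5-fold higher and 11.0% over 1.5-fold lower. These are descriptions of small groups, and the models come from an annotation, not from these libraries. Among H2A genes, H2ac8 and H2aw had the signal and were on opposite sides of 1.

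Of the 36 variants, 9 were measured, and these carried most of the histone RNA that the beads retained. Variants made up 72.4% of the summed RPKM of all histone genes in the Tg library and 79.8% in the WT library. For H3 the share was 99.0% in the Tg library and 99.3% in the WT library. No measured H2B or H4 gene was a variant. The variants were H3.3, the H2A.Z and H2A.X proteins, macroH2A, H2A.J and a pair of linker histones, of which 2 passed 1.5-fold upward and 1 downward in the Tg library, where all measured genes gave 7.74% and 11.0%.

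H2ax encodes H2A.X, the variant that is phosphorylated around DNA breaks. It had 108 RPKM in the Tg library and 43.0 RPKM in the WT library, a ratio of 2.52 (2.33 to 2.73), the highest ratio of any measured histone gene. It was also the measured variant whose model held the stem-loop shown above. Counted with the replication-dependent genes, it would leave 1 variant over 1.5-fold higher, H2az2. H2az2 (formerly H2afv), 1 of the genes for H2A.Z, which is placed at promoters, had 90.8 RPKM in the Tg library and 50.2 RPKM in the WT library, a ratio of 1.81 (1.69 to 1.94). Its paralog H2az1 stood far higher, at 718 RPKM in the Tg library and 614 RPKM in the WT library, with a ratio of 1.17 and an interval above 1. All windows of the H2az1 coding sequence were found in another gene's transcript, and none of the H2az2 windows was.

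The H3.3 genes encode 1 protein that replaces H3 outside replication. H3f3a had 778 RPKM in the Tg library and 903 RPKM in the WT library, a ratio of 0.861 (0.841 to 0.882). H3f3b had 421 RPKM in the Tg library and 545 RPKM in the WT library, a ratio of 0.773 (0.755 to 0.791). Both were lower in the Tg library by less than 1.5-fold, with intervals below 1. Of their coding windows, 92.8% for H3f3a and 46.4% for H3f3b were found in another gene's transcript. How reads were placed is therefore a limit on these levels too, and on the variant shares given above. Macroh2a1, a large variant found on silent chromatin, had 53.5 RPKM in the Tg library and 53.8 RPKM in the WT library, and the ratios of its 4 transcripts ran from 0.977 to 1.07. H2aj had 29.3 RPKM in the Tg library and 28.2 RPKM in the WT library.

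The measured linker variants differed in direction. H1f0 encodes H1.0, which is known to accumulate in cells that have stopped dividing. It had 14.4 RPKM in the Tg library and 27.4 RPKM in the WT library, a ratio of 0.526 (0.471 to 0.587). H1f10 had 17.7 RPKM in the Tg library and 12.4 RPKM in the WT library, a ratio of 1.42 (1.18 to 1.71). The H1f0 model holds no stem-loop and ends with AATAAA, as does that of H1f10.

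**Figure D4:**
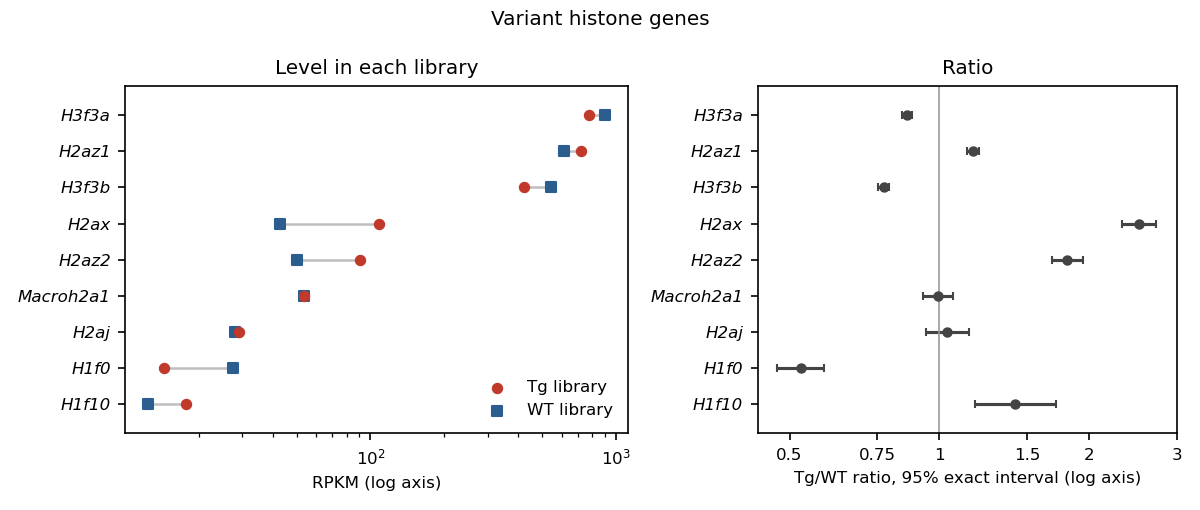
The 9 measured variants: RPKM in the Tg library (red circles) and the WT library (blue squares) on a log axis at left, and the Tg/WT ratio with its 95% exact interval for counting error at right (log axis). H2ax (2.52) and H2az2 (1.81) lie above 1.5 and H1f0 (0.526) lies farthest below 1.

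The 27 variants that were not measured had at most 4 fragments over both libraries, and 20 had none in either. They include the H2al and H2ab genes known from the testis, the oocyte linker histone H1f8 and Macroh2a2, which had 1 fragment in each library. For a transcript of 1 kilobase, a count of 0 allows up to 3 fragments, or 0.195 RPKM in the Tg library and 0.207 RPKM in the WT library. Of the replication-dependent genes, 12 were not measured. The nearest to the limit from below was H2bc1, with 0.677 RPKM in the Tg library and 1.26 RPKM in the WT library. H1f6, a testis linker histone with a stem-loop, had no fragment.

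Cenpa, the centromeric H3 variant, is not named as a histone by its symbol and was read beside the members. It had 53.9 RPKM in the Tg library and 23.1 RPKM in the WT library, a ratio of 2.33 (2.09 to 2.61). Of 35 measured histone chaperones and related factors, 9 were higher by over 1.5-fold and none lower, beside 7.74% and 11.0% of all measured genes, and the list median of log2(Tg/WT) was 0.28. They include both larger subunits of CAF-1, which deposits H3 and H4 behind the replication fork. Chaf1a had 23.2 RPKM in the Tg library and 7.08 RPKM in the WT library (ratio 3.28), and Chaf1b had 19.9 and 12.6 RPKM in the same order (1.58). Asf1b, which hands H3 and H4 to CAF-1, had 56.6 RPKM in the Tg library and 24.4 RPKM in the WT library (2.32), while its paralog Asf1a had 24.0 and 27.7 RPKM.

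Chaperones of single variants were among the 9 as well. Oip5, which prepares centromeres for CENP-A, had 8.34 RPKM in the Tg library and 2.87 RPKM in the WT library (2.90), and Hjurp, the CENP-A chaperone itself, had a ratio of 1.35. Anp32e, which removes H2A.Z, had 81.3 RPKM in the Tg library and 41.6 RPKM in the WT library (1.95). Hirip3 had a ratio of 2.22, and Tonsl and Mms22l, partners at replication forks, had 1.82 and 1.68. The H3.3 factors Hira, Daxx and Atrx had ratios of 1.25, 1.08 and 0.993. The most abundant chaperones, Npm1, Nap1l4, Rbbp7 and Nap1l1, lay within 1.5-fold.

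Of 27 factors of histone mRNA synthesis and 3′ end processing, all measured, only Slbp passed 1.5-fold, a share below the 7.74% of all measured genes. Slbp, the stem-loop binding protein, had 118 RPKM in the Tg library and 65.8 RPKM in the WT library, a ratio of 1.80 (1.69 to 1.91). Npat, the coactivator of histone gene transcription, had 9.69 RPKM in the Tg library and 8.65 RPKM in the WT library. The U7 snRNP proteins Lsm10 and Lsm11 had ratios of 1.06 and 1.17. Snrpd3, Snrpb and Ncbp1, the other abundant members, also lay within 1.5-fold. The list median was 0.24.

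Genes of DNA replication, which run in the same phase of the cell cycle, stood higher. Of 28, 23 were higher by over 1.5-fold and none lower, beside 7.74% and 11.0% of all measured genes. The list median was 0.84, and Slbp is counted in this list as well as among the processing factors. Rrm2, a subunit of ribonucleotide reductase, had 135 RPKM in the Tg library and 36.2 RPKM in the WT library. Mcm7, a subunit of the replicative helicase, had 136 RPKM in the Tg library and 75.2 RPKM in the WT library. Pcna, the replication clamp, had 478 RPKM in the Tg library and 350 RPKM in the WT library, a ratio of 1.37. Of 16 regulators of the G1/S step and of histone transcription, 6 were higher and none lower, again beside 7.74% and 11.0% of all measured genes. Npat and Hinfp are counted among these regulators as well as among the processing factors. E2f2, an activator of S-phase genes, had 106 RPKM in the Tg library and 77.1 RPKM in the WT library, a ratio of 1.37. Yy1, a transcription factor, had 69.6 RPKM in the Tg library and 66.9 RPKM in the WT library. Ccna2, which encodes cyclin A2, had 75.1 RPKM in the Tg library and 25.8 RPKM in the WT library. Nfyb, a subunit of the factor that binds CCAAT, had 36.6 RPKM in the Tg library and 36.4 RPKM in the WT library.

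**Figure D5:**
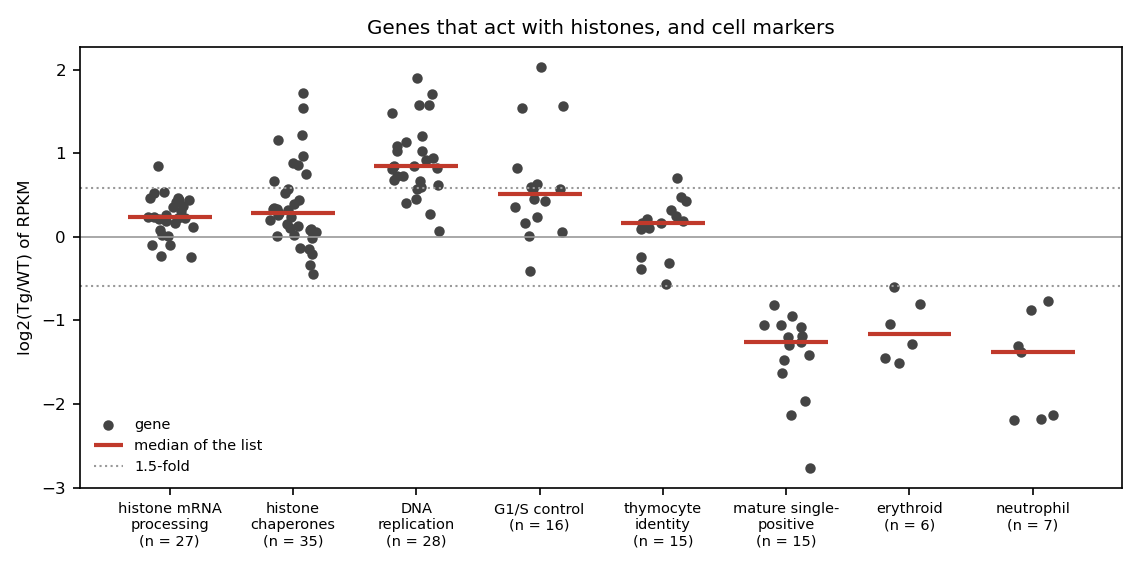
Log2(Tg/WT) of RPKM (vertical axis) for the measured genes of each list, with the list median as a red bar and 1.5-fold as dotted lines. Replication genes have a median of 0.84 and histone mRNA processing factors 0.24, while mature single-positive, erythroid and neutrophil markers lie below the lower line.

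Markers of several cell types also differed in level between the libraries. Thymocyte markers, which check the labelled tissue, were high in both: the summed level of 15 genes was 6213 RPKM in the Tg library and 5812 RPKM in the WT library. All 15 markers of mature single-positive thymocytes were over 1.5-fold lower, beside 11.0% of all measured genes. Their sum was 579 RPKM in the Tg library and 1531 RPKM in the WT library. That list is not independent evidence, since Il7r, H2-K1, Cd53, Gimap3 and Gimap4 were also picked by the study from these libraries. Of erythroid markers, all 6 measured of 10 were over 1.5-fold lower (sum 116 RPKM in the Tg library and 222 RPKM in the WT library). So were all 7 measured of 9 neutrophil markers (146 and 560 RPKM in the same order), both beside the same 11.0%. B cell markers summed to 23.9 RPKM in the Tg library and 33.8 RPKM in the WT library, with 2 of 5 measured over 1.5-fold lower. Those of macrophages and dendritic cells summed to 41.3 and 63.9 RPKM in the same order. Of these, 1 of 4 measured was over 1.5-fold lower. This was Lyz2, which held most of the sum, with 34.7 RPKM in the Tg library and 56.2 RPKM in the WT library. The other measured markers of both lists lay within 1.5-fold. Of thymic epithelium markers, 1 of 5 measured was over 1.5-fold lower and 4 lay within 1.5-fold. The 1 measured marker of fibroblasts and endothelium also lay within 1.5-fold. Male germ cell markers, set against the testis histones, had no measured member of 8, and Prm2, Tnp1 and Dazl had no fragment. The part of these cells in the histone values was not tested.

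Of the 64 measured histone genes, 40 had a transcript length under 600 bases. Over the 400 measured genes of any kind with models that short, the median log2 ratio was -0.31, against 0.06 over 6375 genes of 2400 bases or more. The part of length in the histone values was not tested. The fragments behind the values were 15396696 in the Tg library and 14522669 in the WT library.

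The guide strand of the miRNA that the Tg mice overexpress is shown with its seed, bases 2 to 8, in capitals.
miR-146a-5p (chromosome 11, minus strand): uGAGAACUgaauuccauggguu
Letters that pair with this seed were searched after the stop codon. They were AGTTCTC, opposite bases 2 to 8, and a form shifted by 1 base with an A at its end, GTTCTCA. They were present in 2 of 53 measured histone genes with such sequence (3.77%), H2aw and H4f16, and in 1844 of 10227 measured genes of any kind. The histone sequences after the stop codon were short, with a median of 199 bases, 21 under 100 bases and 2 too short for any site, against a median of 964 bases for all measured genes, so the shares cannot be compared. H2aw had a ratio of 0.722 and H4f16 a ratio of 0.989. H2bc8, H1f2 and H1f0, which stood low in the Tg library, held none.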

How the data were processed

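Thymus RNA of 1 Tg and 1 WT pool was selected with oligo(dT) beads and sequenced on an Illumina instrument. The authors mapped reads with a program their methods spell HotHap2 (build mm10 per the submitters' processing notes), counted uniquely mapped reads and deposited RPKM values per RefSeq transcript. Their text describes a fragment-based unit. The program's version and its strand setting: not given in the sources used here.

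Of 30533 transcripts, 30188 received a symbol through RefSeq (GRCm38.p6) and GENCODE M21. From the histone genes, 1 pseudogene was left out. Whole, even reads were recovered within a relative tolerance of 1e-09, as the shortest length not under the coding length that gave them, and 2 reads were taken as 1 fragment. Each ratio divides the Tg value by the WT value, without a pseudocount and with exact binomial intervals at 95%. A transcript with no reads is listed at the value of 1 read.

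The members, lists and thresholds were chosen with earlier results of these data known. Named were all measured variants, the 10 replication-dependent genes with the highest mean, the 3 highest and 3 lowest ratios among those with 20 or more fragments, genes nearest to the limit of 1 RPKM, the most abundant 4 of other lists, processing factors and chaperones over 1.5-fold (1 of these is not reported here), and Cenpa. Marker lists are given as sums or as counts of genes. Other named genes (such as H2ac8, H2ac18, H2ac19, H2aw, H2bu2, H2bc21, H4f16, H1f5, Asf1a, Hjurp, Hira, Npat and Lsm10) were chosen after their values were seen. Recovery was tested on simulated data. Alternatives were other floors, pseudocounts, scalings, summed transcripts and other class rules. Python 3.11.15 with numpy 2.4.6, pandas 2.3.3, scipy 1.17.1 and matplotlib 3.10.9 was used.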

Additional observations from a re-analysis of the deposited data

How the results depend on the processing

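With 1 pooled library per genotype, no alternative measures the spread between animals, and no replicate could be left out. No paired analysis was possible because each genotype has 1 library. The median log2(Tg/WT) of the replication-dependent genes (0.16) was 0.69 with a mean of at least 5 RPKM, 0.36 with 20 or more fragments, 0.28 with both libraries set to the same RPKM sum and 0.08 with classes set by the stem-loop. In alternatives chosen after seeing the data it was -0.02 without the H2A genes and -0.46 for genes with under 50% shared windows. The difference from the variants (0.10) was 0.64 at 5 RPKM, 0.30 with 20 fragments, -0.07 without the H2A genes and -0.52 for genes with few shared windows, so its direction rests on the H2A genes. The 16 replication-dependent genes over 1.5-fold higher became 10 by stem-loop class, 5 at 2-fold, 4 without the H2A genes and 1 among genes with few shared windows. The 7 lower genes became 3 at 5 RPKM, 2 at 2-fold, 4 by interval and 2 among genes with few shared windows. The variant median (0.05) was -0.01 with no filter or by stem-loop class, 0.17 with the same RPKM sum, and 0.02 with the median or upper quartile set equal, without H2ax or without the transcripts the study listed. The 2 higher variants became 1 by stem-loop class, without H2ax, without the listed transcripts or at 2-fold, and 4 by interval. The 1 lower variant became 0 at 2-fold and 3 by interval. The variants are few, so 1 gene moves their median, and the cause of the other shifts was not tested. Setting the RPKM sums equal subtracts -0.12 from every log2 ratio.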
